A study of Homo sapiens with 27 samples.

Results

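The 171 genes described here are protein-coding genes of chromosome 13 that lie in 2 stretches of the long arm, 64 in a proximal stretch from 18.4 to 37.6 Mb and 107 in a distal stretch from 49.5 to 114.4 Mb (hg38, GENCODE v44). A gene was taken if it lay wholly inside a stretch and had a mean CPM (counts scaled to the size of the library) of at least 1 over all libraries, which kept 171 of the 253 protein-coding genes in the stretches (64 of 97 proximal and 107 of 156 distal) and made up a small part of the 13367 protein-coding genes at that level in the series. The borders were chosen by the measured log2 fold change of SUM44 LTED-A against SUM44F cells, which was above 0 for most genes of the proximal and below 0 for most of the distal stretch. That difference is therefore given below as a description, without a test, and the other groups carry the comparisons that were tested. At the CPM minimum, MTUS2 (1.06 CPM) and TMEM255B (1.14 CPM) lay just inside, and COL4A1 (0.962 CPM) and GRK1 (0.945 CPM) just outside. The first and last proximal members were MPHOSPH8 (chr13:19633659-19673441) and SUPT20H (chr13:37009312-37059713), and those of the distal stretch were RCBTB1 (chr13:49531946-49585558) and CHAMP1 (chr13:114314482-114337626).

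RNA-Seq was done on 27 libraries in 9 groups of 3 wells, from MM134 (MDA-MB-134VI) and SUM44, a pair of human breast cancer cell lines that carry estrogen receptor and derive from invasive lobular carcinoma. The long-term estrogen-deprived (LTED) variants were selected for growth without estrogen, and there are 4 from MM134 (LTED-A, -B, -D and -E) and 2 from SUM44 (LTED-A and LTED-B). MM134 parental, SUM44F and SUM44PE cells had been deprived of hormones for 3 days before collection, SUM44F being the SUM44PE culture after growth in standard serum and the parental cells of both SUM44 variants. The replicates of a group are wells of 1 culture, so the spread and the p-values speak for these cultures and not for further derivations.

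The estimated counts summed to between 28583554 and 134882175 per library. For SUM44 LTED-A, the counts of replicates 2 and 3 were closer than sampling noise between separate libraries allows (chi-square per degree of freedom 0.312, against 2.35 to 58.1 in the other 26 pairs of replicates), so that they may come from a single library. Their mean was used as 1 sample, and LTED-A has n = 2. KRT8, a keratin of luminal epithelium, was at 585 to 2943 CPM over all libraries, and CDH1, the E-cadherin gene that lobular carcinomas lose, was at 8.36 to 24.6 CPM. One library stood apart, since the 8 markers of immune, endothelial and stromal cells summed to 277.7 CPM in SUM44F replicate 1 (COL3A1 at 134.6 CPM and COL1A1 at 85.9 CPM, with the T cell gene CD3E at most 0.152 CPM), to 41.1 and 34.4 CPM in SUM44F replicates 2 and 3, and to 7.72 to 31.7 CPM in the other samples. The stretch values below are therefore also given without that library.

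Chromosome 13 carries its genes on the long arm, with BRCA2 in the proximal stretch and the tumour suppressor gene RB1 between the stretches. In carcinoma cells, segments of chromosomes are often gained or lost, and transcripts of neighbouring genes can then shift together, with individual genes departing from the rest through their own regulation. Counts of RNA measure transcripts and not DNA copies, and DNA was not analysed here, so whether gene dosage moved with the levels was not tested.

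In the proximal stretch, summed normalised levels of the 64 members were 2495, 2530 and 2454 CPM in the SUM44F libraries and 8559 and 9640 CPM in the SUM44 LTED-A samples. Both LTED-A samples thus lay above every other library of the series, the next highest being an LTED-B library at 3163 CPM. For the 107 distal members, the sums were 3149, 3154 and 3010 CPM in SUM44F and 1545 and 1648 CPM in LTED-A, below every other library, the lowest of which was an MM134 parental library at 2524 CPM. Protein-coding genes between the stretches (44 at the CPM minimum) summed to 2018 ± 49.8 CPM in SUM44F (SD, n = 3) and 1816 ± 236 CPM in LTED-A (SD, n = 2), so that the groups overlapped there. In these bulk samples, more RNA of a gene per cell and more cells carrying it cannot be told apart.

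Gene by gene, 63 of the 64 proximal members and 101 of the 107 distal members passed the filter on low counts in the SUM44 fit. Their median log2 fold change in LTED-A against SUM44F was 1.60 in the proximal stretch (quartiles 1.02 and 1.95), a 3.03-fold higher level, and -0.97 in the distal stretch (quartiles -1.31 and -0.61), a 0.51-fold level. The median was -0.07 over the 44 genes between the stretches and 0.07 over 13042 other protein-coding genes. A gene is called here at a change beyond 1.5-fold and an adjusted p under 0.001, the thresholds of the study. By this rule 49 proximal members were called higher and 1 lower. Of all 26834 genes tested, 6.39% were called higher and 7.28% lower. Among the other protein-coding genes these shares were 10.9% and 10.3%. In the distal stretch 66 were called lower and 1 higher. At an adjusted p under 0.05 with no minimum fold, 57 proximal and 86 distal members passed, beside 36.1% of all genes. The share among the other protein-coding genes was 51.8%. The member counts follow from how the stretches were chosen. Without SUM44F replicate 1, the medians were 1.59 and -0.96, with 51 proximal and 65 distal members called in either direction.

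**Figure D1:**
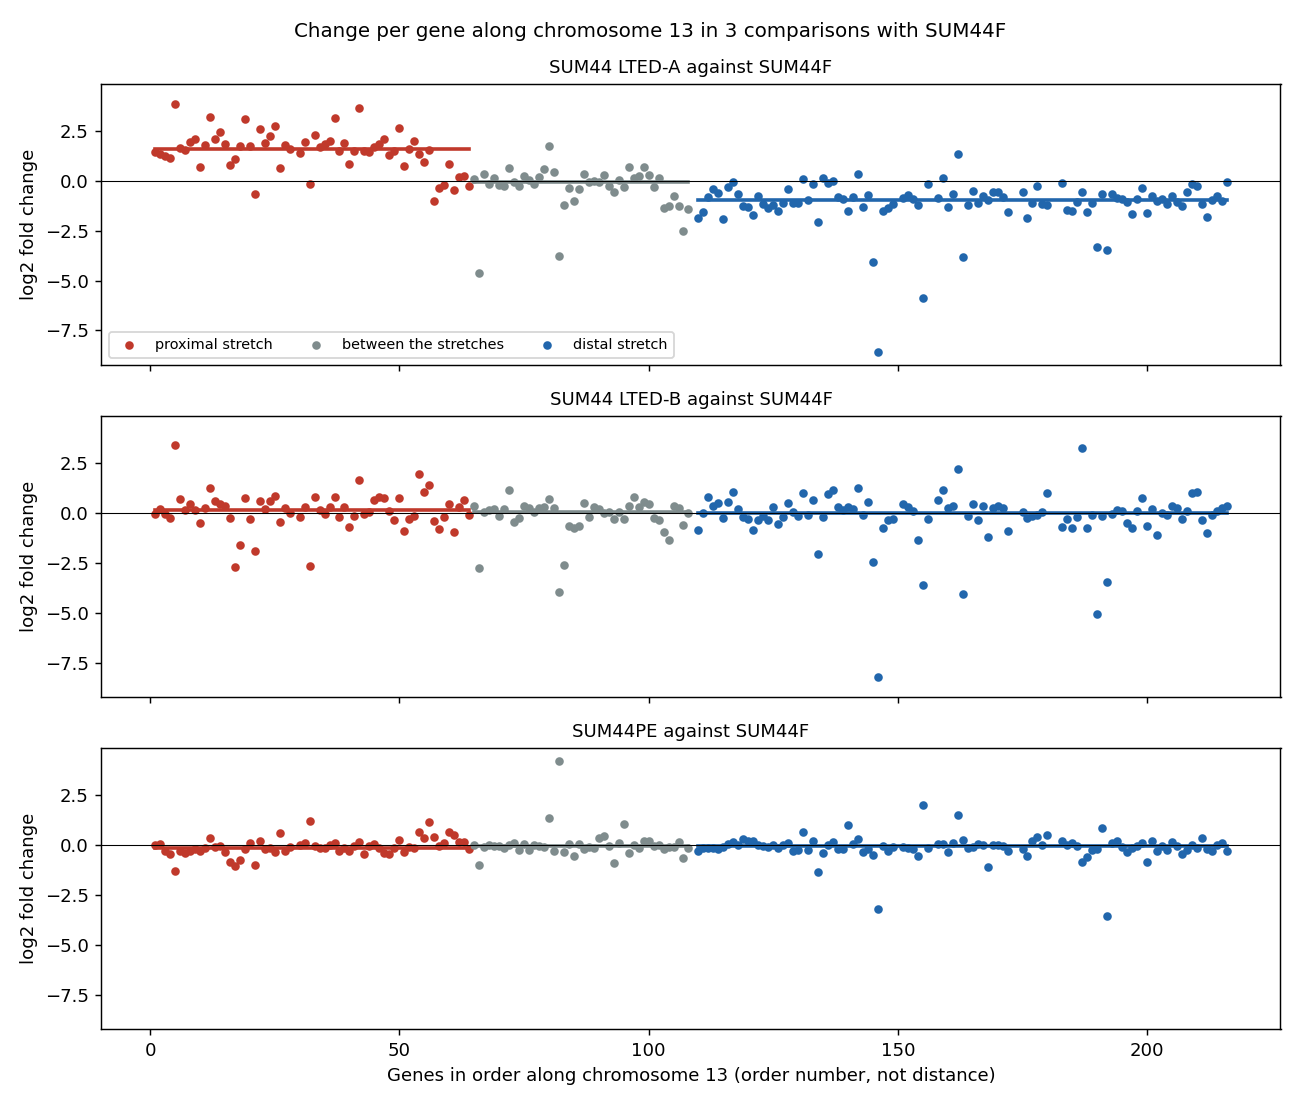
Each point is the log2 fold change of 1 gene (vertical axis) in its order along chromosome 13 (horizontal axis), for SUM44 LTED-A, SUM44 LTED-B and SUM44PE against SUM44F, with a line at the median of each stretch. In LTED-A the proximal line lies at 1.60 and the distal line at -0.97, while in LTED-B they lie at 0.15 and -0.03 and in SUM44PE at -0.13 and -0.07.

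The shift was not even along the stretches. In the proximal stretch, the 56 members from MPHOSPH8 to NBEA had a median of 1.70, with 49 called higher and 1 lower, and the last 8 members, DCLK1 to SUPT20H, had a median of -0.24 with none called. In this split the higher levels ran up to NBEA (chr13:34942270-35673022), inside the border that the rule set. RFC3 and NBEA, the last genes of the raised part, also differed from SUM44F in other groups. RFC3 was as high in LTED-B as in LTED-A, and NBEA was higher in SUM44PE. Their levels therefore cannot place the end of the LTED-A shift. At the other edge, lower levels were also seen ahead of the first distal member. The 5 genes from FNDC3A to PHF11, which crosses the border, are no members, had a median of -1.32 and were all called lower. Of these, CAB39L was also called lower in LTED-B (-0.63) and in SUM44PE (-0.62). LPAR6 and RCBTB2, which lie just before FNDC3A, were called lower in LTED-A (-1.38 and -1.26) and in LTED-B (-0.93 and -1.36). Where the lower levels of LTED-A began was thus not settled by these genes. For the 40 genes from UFM1 to RCBTB2 the median was -0.02, with 3 called higher and 6 lower, LPAR6 and RCBTB2 among the latter. Within these, log2 fold changes were 0.15 for RB1, -0.24 for FOXO1 and -0.30 for LCP1. These sub-stretches were picked after their values were seen.

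Members varied around the median of their stretch. Of the 63 proximal members, 55.6% lay within 0.5 on the log2 scale of the median, as did 59.4% of the 101 distal members, beside 64.4% of the other protein-coding genes around theirs. Across the proximal members, the LTED-A difference went with the SUM44F level by a Spearman coefficient of 0.32 (n = 63 genes) and with exon length by -0.15, and across the distal members by -0.02 and 0.01 (n = 101 genes). These are descriptions over genes measured in the same libraries. Measured against other groups, the LTED-A samples stood apart in the same way, since the median difference in log2 level was 1.72 proximal and -0.76 distal against SUM44PE, and 1.48 and -0.90 against SUM44 LTED-B. Of the 107 distal members, 89 were lower in both LTED-A samples than in every SUM44PE library and 88 lower than in every LTED-B library, and of the 64 proximal members 53 and 54 were higher. Such separation was common, since of 13152 other protein-coding genes 3999 were lower and 5567 higher than in every SUM44PE library. Against LTED-B, 5110 of them were lower and 3420 higher. The LTED-A samples are those that the borders were drawn from.

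**Figure D2:**
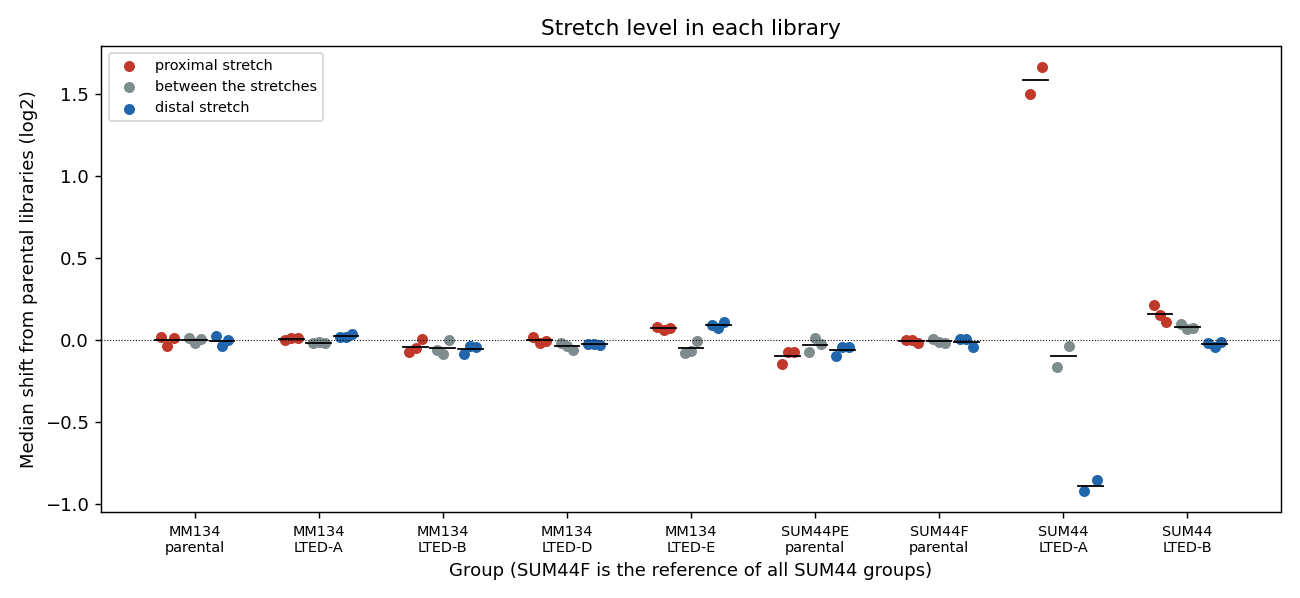
Each point is 1 sample and gives the median over genes of its log2 level minus the mean of the parental libraries of its line (vertical axis), for the members of each stretch and the genes between them in 9 groups (horizontal axis), with a bar at the group mean. The SUM44 LTED-A samples lie at 1.503 and 1.66 for the proximal and at -0.92 and -0.85 for the distal stretch, and every other sample lies within 0.214 of its parental mean.

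Among proximal members at 5 CPM or more in SUM44F or LTED-A, those with the largest differences were GJB2, SLC7A1, SKA3 and FLT3. GJB2 (ENSG00000165474, chr13:20187463-20192938), the gap junction protein connexin 26, was at 0.499, 0.391 and 0.412 CPM in SUM44F and at 5.46 and 6.81 CPM in LTED-A. SLC7A1 (ENSG00000139514, chr13:29509414-29595688), a transporter of cationic amino acids, was at 28.1, 30.9 and 25.8 CPM in SUM44F and at 413 and 286 CPM in LTED-A, a log2 fold change of 3.63 (SE 0.14). SKA3 (ENSG00000165480, chr13:21153595-21176552), part of the complex that ties chromosomes to spindle microtubules, was at 9.98, 9.59 and 9.14 CPM in SUM44F and 80.7 and 93.9 CPM in LTED-A. For each of these genes both LTED-A samples exceeded all SUM44F libraries, with no overlap. FLT3 (ENSG00000122025, chr13:28003274-28100592), a receptor tyrosine kinase known from blood progenitors, went from 20.7, 21.8 and 19.6 CPM to 166 and 196 CPM, an 8.74-fold difference. PARP4 (ENSG00000102699, chr13:24420931-24512778), which encodes the vault poly(ADP-ribose) polymerase, went against its neighbours, at 53.96, 50.9 and 54.9 CPM in SUM44F and 34.4 and 33.8 CPM in LTED-A (log2 fold change -0.64).

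Among the distal members at 5 CPM or more in either group, KCTD12, LMO7 and MBNL2 had the largest differences that did not rest on 1 library. SLITRK6, at 1.24 CPM in SUM44F and no more than 3 counts in either LTED-A sample, was at least 24.6-fold lower but under that level. KCTD12 (ENSG00000178695, chr13:76880175-76886405), an auxiliary subunit of GABA-B receptors, was at 7.12, 5.23 and 5.04 CPM in SUM44F and had at most 1 count in the LTED-A samples, which makes it at least 115-fold lower there when each LTED-A sample is set to the floor of 3 counts. LMO7 (ENSG00000136153, chr13:75620434-75859870), a LIM domain protein of cell junctions, was at 35.8, 34.1 and 32.00 CPM in SUM44F and 2.20 and 1.94 CPM in LTED-A. MBNL2 (ENSG00000139793, chr13:97221434-97394120), a regulator of alternative splicing, was at 54.9, 58.3 and 54.8 CPM in SUM44F and 3.73 and 4.07 CPM in LTED-A. No LTED-A sample overlapped SUM44F for these members. COL4A2 (ENSG00000134871, chr13:110305812-110513209), a chain of basement membrane collagen, was at 22.7, 1.78 and 1.20 CPM in SUM44F and 0.914 and 0.640 CPM in LTED-A, and its log2 fold change of -3.49 (SE 1.15) became -0.96 without SUM44F replicate 1. That library is the one in which the markers of other cells summed to 277.7 CPM, and their part in the COL4A2 value was not tested. HS6ST3 (ENSG00000185352, chr13:96090107-96839562), a sulfotransferase acting on heparan sulfate, was the single distal member called higher, at 11.2, 10.8 and 10.6 CPM in SUM44F and 26.9 and 27.1 CPM in LTED-A. TBC1D4 was the next most against the stretch at 5 CPM or more, at 20.1 CPM in both LTED-A samples, and was not called higher.

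Promoter windows of 4 of these genes with 1 entry each in the RefSeq promoter table (GRCh38.p14) are printed, with searched motifs in capitals. They show members with steep differences, although not GJB2, LMO7 or MBNL2, beside a distal member that went the other way. Each window has 250 bases ending at the base before the RefSeq transcription start, from 5′ to 3′ on the strand of the gene. They are SLC7A1 (chr13:29595689-29595938, minus strand) and SKA3 (chr13:21176553-21176802, minus strand) of the proximal stretch, and KCTD12 (chr13:76886406-76886655, minus strand) and HS6ST3 (chr13:96089857-96090106, plus strand) of the distal stretch.
SLC7A1: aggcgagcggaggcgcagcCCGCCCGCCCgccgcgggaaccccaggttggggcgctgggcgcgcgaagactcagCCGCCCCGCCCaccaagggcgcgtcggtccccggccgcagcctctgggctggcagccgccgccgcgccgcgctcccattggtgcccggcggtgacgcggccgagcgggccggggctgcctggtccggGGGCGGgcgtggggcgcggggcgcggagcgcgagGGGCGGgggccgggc
SKA3: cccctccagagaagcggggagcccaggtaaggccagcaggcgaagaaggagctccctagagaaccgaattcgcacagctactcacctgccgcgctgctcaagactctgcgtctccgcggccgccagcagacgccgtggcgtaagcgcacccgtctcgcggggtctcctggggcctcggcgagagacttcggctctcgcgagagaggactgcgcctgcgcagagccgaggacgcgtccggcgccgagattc
KCTD12: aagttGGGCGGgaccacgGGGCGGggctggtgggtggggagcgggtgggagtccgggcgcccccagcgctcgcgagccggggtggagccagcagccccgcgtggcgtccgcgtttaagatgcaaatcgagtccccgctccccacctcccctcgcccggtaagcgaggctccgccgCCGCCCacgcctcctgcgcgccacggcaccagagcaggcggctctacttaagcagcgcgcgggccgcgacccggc
HS6ST3: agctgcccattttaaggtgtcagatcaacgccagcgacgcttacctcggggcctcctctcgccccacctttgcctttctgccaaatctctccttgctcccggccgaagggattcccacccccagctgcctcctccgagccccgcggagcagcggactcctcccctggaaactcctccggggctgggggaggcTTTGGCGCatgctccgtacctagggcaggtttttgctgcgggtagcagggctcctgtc
The GC box GGGCGG, counted on both strands, occurred 6 times before SLC7A1 (where matches overlap) and 3 times before KCTD12 but was not found in the SKA3 and HS6ST3 windows, and the E2F motif TTTGGCGC occurred once before HS6ST3. GC content was 84.4% in the SLC7A1 window, 75.6% for KCTD12, 68.4% for SKA3 and 64.4% for HS6ST3. The table held 238 windows for 152 of the 171 members, since some genes have several starts. In the bases before the start, GGGCGG was present in 62.8% of the 78 proximal and 56.9% of the 160 distal windows, against 42.6% of all 35116 windows, and TATAAA in 7.69% and 4.38% against 10.7%. The E2F motif TTTCCCGC was in 2.56% of the proximal and 3.75% of the distal windows against 1.39% of all, TTTGGCGC in 0 and 1.25% against 0.55%, and the palindromic estrogen response element (GGTCA and TGACC with any 3 bases between) in 0 windows of either stretch and 14 of all 35116. The 35116 windows were not limited by gene type or expression as the members were. The shares are therefore not like for like and do not show a trait of the stretches. A match of letters is a description and not a bound site.

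Cell cycle and replication genes lay in both stretches. In LTED-A, 4 of 5 proximal members of this list were called higher, with a median log2 fold change of 1.60, and 2 of 8 distal ones lower, with a median of -0.31 beside -0.97 for the whole distal stretch. Over the whole stretches 77.8% of the proximal members tested were called higher and 65.3% of the distal ones lower. The LTED-A counts of every list are to be read beside these shares, which follow from the choice of the borders. RFC3 (proximal), a subunit of the clamp loader of DNA replication, was at 21.9, 21.6 and 21.9 CPM in SUM44F, 38.4 and 46.5 CPM in LTED-A and 46.2, 43.5 and 43.7 CPM in LTED-B, with both variants above SUM44F and overlapping each other. CUL4A (distal), the scaffold of a ubiquitin ligase of the replication and repair machinery, was at 86.8, 87.5 and 83.04 CPM in SUM44F, 35.3 and 42.03 CPM in LTED-A and 78.5, 80.4 and 78.7 CPM in LTED-B. TFDP1 (distal), the partner of E2F factors in DNA binding, was at 53.8, 51.2 and 44.7 CPM in SUM44F, 40.6 and 43.6 CPM in LTED-A and 100.1, 102 and 106 CPM in LTED-B, so that LTED-B lay above both other groups. In LTED-B, 8 of the 13 genes rose (3 of 5 proximal and 5 of 8 distal) and none fell, with a list median of 0.77. Of all genes tested in that comparison, 8.69% were called higher and 8.57% lower. Among the other protein-coding genes at the CPM minimum these shares were 15.9% and 11.2%. The LTED-B counts of every list are to be read beside both pairs of shares. TFDP1 was among the 8 (1.04, SE 0.08, adjusted p = 1.96e-06), and CKAP2, a protein of spindle microtubules, was not called (0.50, SE 0.07, adjusted p = 0.00026), since its fold lay under 1.5.

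DNA repair genes included BRCA2 (ENSG00000139618, chr13:32315086-32400268), which acts in homologous recombination. BRCA2 was at 40.8, 40.8 and 44.7 CPM in SUM44F, 51.2, 47.8 and 52.6 CPM in SUM44PE, 258 and 276 CPM in LTED-A and 78.8, 68.4 and 64.3 CPM in LTED-B. Both variants were above all SUM44F libraries, with an LTED-A difference of 6.35-fold and a rise of 1.67-fold in LTED-B (log2 fold change 0.74, SE 0.09, adjusted p = 5.27e-05). PDS5B, a regulator of cohesin from the same stretch, was at 39.5 ± 0.461 CPM (SD, n = 3) in SUM44F, 157 ± 41.5 CPM (SD, n = 2) in LTED-A and 36.05 ± 1.69 CPM (SD, n = 3) in LTED-B, where it was not called. HMGB1, a chromatin protein and alarmin with many processed copies in the genome whose reads the estimate may have split, was at 315, 318 and 318 CPM in SUM44F and 865 and 1188 CPM in LTED-A. In LTED-B it was called at the edge of the threshold (0.65, SE 0.12, adjusted p = 0.000979). The call was lost with RLE size factors, with a replicate block and with the near-identical replicates kept apart. It was also lost on leaving out any single library of the 2 groups. ERCC5 (distal), an endonuclease of nucleotide excision repair, was at 36.3, 39.3 and 35.9 CPM in SUM44F and 11.7 and 14.8 CPM in LTED-A, without overlap. A readthrough gene that joins BIVM to ERCC5 is also a member, so the division of reads between them is uncertain. Over the list, 3 of 4 proximal members were called higher and 1 lower in LTED-A, beside 77.8% and 1.59% of the whole proximal stretch. Of the distal ones 3 of 5 were called lower, beside 65.3% of that stretch. In LTED-B 3 of 9 rose and 2 fell, against 8.69% and 8.57% of all genes.

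**Figure D3:**
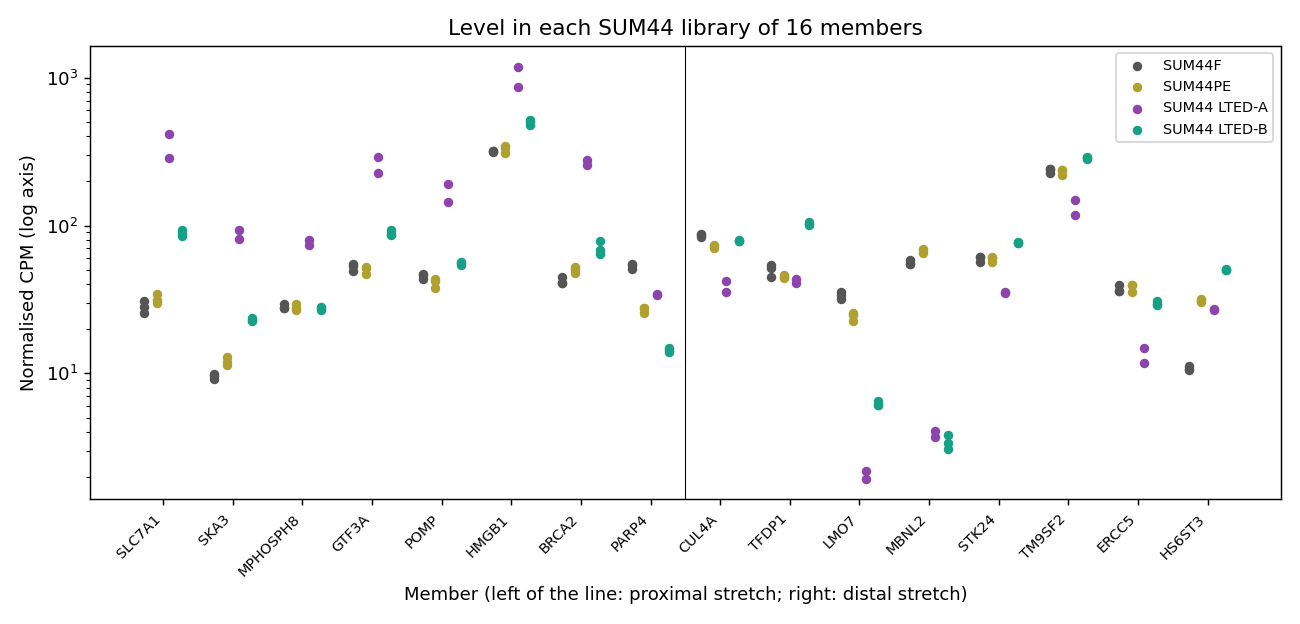
Normalised CPM (vertical log axis) of 16 members in every SUM44 sample, 8 proximal members left of the line and 8 distal members right of it, with 1 point per sample and colours for SUM44F, SUM44PE and the variants LTED-A and LTED-B. The LTED-A points lie above SUM44F for 7 of the 8 proximal members, PARP4 being the exception, and below SUM44F for 7 of the 8 distal members, HS6ST3 being the exception.

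Of the receptors, ligands and signalling genes, 9 of 14 on the list were members, FLT1, FGF9, FGF14, EDNRB and KL not being among them. EFNB2 (distal), a transmembrane ligand of Eph receptors, was at 34.1, 31.8 and 29.6 CPM in SUM44F, 10.4 and 11.7 CPM in LTED-A and 18.6, 19.01 and 18.8 CPM in LTED-B. It fell in LTED-B (-0.76, SE 0.08, adjusted p = 3.31e-05), to a level between the other groups. STK24 (distal), a kinase of the sterile 20 family, was at 59.9 ± 2.41 CPM (SD, n = 3) in SUM44F and 35.2 ± 0.383 CPM (SD, n = 2) in LTED-A, with 76.5 ± 0.924 CPM (SD, n = 3) in LTED-B. IRS2, the adaptor of insulin and IGF receptors, was at 16.6, 17.5 and 17.8 CPM in SUM44F and 12.6 and 9.03 CPM in LTED-A, not called by edgeR but called lower by DESeq2, with the near-identical replicates kept apart and without a filter on low counts. It rose in SUM44PE (30.8, 29.7 and 34.3 CPM, log2 fold change 0.86, SE 0.11, adjusted p = 0.000129). By counts, 2 of 3 proximal members were called higher in LTED-A and 4 of 6 distal ones lower, beside 77.8% and 65.3% of the whole stretches. In LTED-B 1 of 9 members of the list rose and 5 fell, against 8.69% and 8.57% of all genes. FLT3 was the gene that rose there, to 36.1, 37.97 and 35.2 CPM (0.81, SE 0.08, adjusted p = 1.34e-05).

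Transcription factor and chromatin genes numbered 10 members of a list of 12 (SOX21 and CDX2 were not members), of which 8 passed the filter. MPHOSPH8 (ENSG00000196199), a reader of methylated histone H3 in the HUSH silencing complex and the first gene of the proximal stretch, was at 27.5, 27.5 and 29.7 CPM in SUM44F, 26.9, 29.5 and 27.9 CPM in SUM44PE, 73.7 and 80.1 CPM in LTED-A and 27.9, 26.9 and 28.02 CPM in LTED-B. LTED-A alone was set apart, and the libraries of the other groups overlapped. SAP18, a subunit of the Sin3 histone deacetylase complex, was at 78.4 ± 7.65 CPM (SD, n = 3) in SUM44F and 271 ± 25.1 CPM (SD, n = 2) in LTED-A, and ZMYM2, a zinc finger protein of corepressor complexes, at 139.7 ± 3.81 CPM and 307 ± 21.7 CPM. All 4 proximal members of the list were called higher in LTED-A, beside 77.8% of the whole proximal stretch. Of the 4 distal ones tested, 2 were called lower, beside 65.3% of the whole distal stretch. DACH1, a distal corepressor, was at 42.6, 46.9 and 42.6 CPM in SUM44F and 59.9 and 38.4 CPM in LTED-A, with overlap. In LTED-B edgeR called 0 of these 8 members, 3 of which had an unadjusted p under 0.05, and DESeq2 called 0 as well.

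Of the ubiquitin and protein turnover genes, 5 of 5 proximal members were called higher and 4 of 6 distal ones lower in LTED-A. Over the whole stretches these shares were 77.8% and 65.3%. POMP, the chaperone of 20S proteasome assembly, was at 43.8, 46.8 and 45.9 CPM in SUM44F, 144 and 192 CPM in LTED-A and 56.98, 55.4 and 53.9 CPM in LTED-B. RNF6, a ubiquitin ligase, was 3.44-fold and UBL3, a ubiquitin-like protein anchored at membranes, 2.79-fold higher in LTED-A. TPP2 (distal), a peptidase acting downstream of the proteasome, was at 49.9, 52.2 and 48.6 CPM in SUM44F and 21.2 and 23.9 CPM in LTED-A, about 2.22-fold lower. In LTED-B, edgeR called 1 of the 11 members of this list higher and 0 lower, near the 8.69% and 8.57% of all genes, with 8 at an unadjusted p under 0.05, and DESeq2 called 2 higher and 0 lower. TPP2 differed from SUM44F by 0.06 on the log2 scale (SE 0.07).

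Of the RNA and translation genes, 4 of 6 proximal members were called higher and 6 of 6 distal ones lower in LTED-A. The whole stretches had 77.8% called higher (proximal) and 65.3% called lower (distal). GTF3A, the transcription factor of 5S ribosomal RNA genes, was at 54.5, 53.4 and 49.4 CPM in SUM44F, 227 and 289 CPM in LTED-A and 86.9, 88.3 and 93.9 CPM in LTED-B, and its rise in LTED-B passed the test (0.77, SE 0.09, adjusted p = 6.31e-05). RPL21, a ribosomal protein gene with processed pseudogenes and so with uncertain counts, was at 201 ± 25.6 CPM (SD, n = 3) in SUM44F and 759 ± 110.5 CPM (SD, n = 2) in LTED-A. DIS3 (distal), a nuclease of the RNA exosome, was at 48.7, 50.96 and 54.6 CPM in SUM44F, 27.6 and 31.1 CPM in LTED-A and 65.6, 60.8 and 63.8 CPM in LTED-B. INTS6 (distal), of the Integrator complex, was 1.58-fold lower in LTED-A, and its call was lost without LTED-A replicate 1. MBNL2 was the single member of this list that fell in LTED-B, to 3.82, 3.41 and 3.08 CPM (-4.04, SE 0.10, adjusted p = 6.77e-10). SUPT20H, the last proximal gene and a subunit of the SAGA complex, was at 35.04, 36.3 and 33.2 CPM in SUM44F and 29.01 and 28.9 CPM in LTED-A.

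For metabolism, transport and organelle genes, 15 of 17 were members (ABCC4 and COL4A1 were not), 5 of 5 proximal ones were called higher and 6 of 10 distal ones lower in LTED-A. The shares of the whole stretches were 77.8% and 65.3%. HSPH1, a heat shock protein of the HSP110 family, was at 107, 118 and 100.3 CPM in SUM44F, 425 and 484 CPM in LTED-A and 179.6, 183 and 178 CPM in LTED-B. TM9SF2 (distal), a transmembrane protein of endosomes and the Golgi, was at 243, 241 and 225 CPM in SUM44F, 117 and 148 CPM in LTED-A and 290.0, 280.5 and 285 CPM in LTED-B. LAMP1, a lysosomal membrane protein near the end of the chromosome, was at 134 ± 13.3 CPM (SD, n = 3) in SUM44F and 80.1 ± 3.99 CPM (SD, n = 2) in LTED-A. The LTED-A calls of TM9SF2 and LAMP1 were lost without SUM44F replicate 2, and that of LAMP1 also without LTED-A replicate 1. IPO5, a nuclear import receptor, was 1.44-fold lower in LTED-A and so fell short of the minimum fold. In LTED-B 2 of these 15 members rose, HSPH1 (0.73, SE 0.08, adjusted p = 4.57e-05) among them, and 2 fell by edgeR (3 by DESeq2), against 8.69% and 8.57% of all genes.

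SUM44 LTED-B came from the same SUM44F cells, and its libraries had no part in choosing the stretches, although the SUM44F libraries had. The median log2 fold change was 0.15 over the proximal members (quartiles -0.24 and 0.62) and -0.03 over the distal members (quartiles -0.35 and 0.33), beside 0.12 over the other protein-coding genes. In the proximal stretch 18 of 63 members rose (28.6%), against 8.69% of all 26834 genes tested and 15.9% of the other protein-coding genes at the CPM minimum, and 7 fell (11.1%), against 8.57% and 11.2%. Of the 101 distal members 13 rose (12.9%) and 15 fell (14.9%). At an adjusted p under 0.05 with no minimum fold, 40 proximal and 63 distal members passed, against 45.8% of all genes. That was 63.5% and 62.4% of those tested, against 63.0% of the other protein-coding genes. Per library, the proximal median shift was 0.214, 0.153 and 0.110 on the log2 scale in LTED-B, and 1.503 and 1.66 in LTED-A. Without SUM44F replicate 1, the LTED-B medians were 0.16 and -0.04, with 20 proximal and 24 distal members called in either direction in place of 25 and 28.

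Single members moved far in LTED-B. NALF1 (ENSG00000204442, chr13:107163510-107867496), an auxiliary factor of the NALCN sodium leak channel, rose from 1.22, 0.488 and 0.612 CPM to 7.35, 7.39 and 6.81 CPM (3.24, SE 0.28, adjusted p = 5.63e-06), and was at 0.470 and 0.552 CPM in LTED-A. MYO16 (ENSG00000041515, chr13:108596152-109208005), an unconventional myosin, fell from 182, 190.4 and 172 CPM to 5.96, 4.84 and 5.27 CPM (-5.09, SE 0.09, adjusted p = 1.28e-10), and was at 18.9 and 17.7 CPM in LTED-A. Both variants thus lay far under SUM44F for MYO16. HS6ST3 rose to 50.02, 50.5 and 50.2 CPM (2.21, SE 0.07, adjusted p = 2.43e-09), above SUM44F and LTED-A. KCTD12 reached at most 3 counts in any library of LTED-B, at least 88.2-fold under SUM44F. SLC7A1 rose to 85.3, 93.1 and 87.5 CPM (1.65, SE 0.13, adjusted p = 2.73e-06) and SKA3 to 23.6, 22.7 and 22.9 CPM (1.27, SE 0.08, adjusted p = 5.28e-07), both short of the LTED-A samples. GJB2 rose to 4.61, 4.33 and 4.90 CPM (3.41, SE 0.17, adjusted p = 8.81e-08). PARP4 fell to 14.97, 13.97 and 14.4 CPM (-1.88, SE 0.07, adjusted p = 1.14e-08), below its LTED-A level.

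SUM44PE, the culture that SUM44F was grown from, was compared with the SUM44F libraries again. The median log2 fold change was -0.13 proximal and -0.07 distal. In the proximal stretch 4 of 63 members were higher and 4 lower in SUM44PE, and in the distal stretch 5 of 101 were higher and 3 lower, against 2.85% higher and 2.72% lower of 27457 genes tested and 4.88% and 4.24% of the other protein-coding genes. Leaving out any single library of either group gave 1 to 3 proximal members higher in place of 4 (1 without SUM44PE replicate 2 or 3), and 3 to 5 distal members higher and 2 or 3 lower (3 higher without SUM44PE replicate 3). At an adjusted p under 0.05 with no minimum fold, 29 members of each stretch passed, against 23.1% of all genes. That was 46.0% of the proximal and 28.7% of the distal ones tested, against 35.9% of the other protein-coding genes. HS6ST3 was higher in SUM44PE, at 30.3, 31.8 and 31.2 CPM (1.51, SE 0.06, adjusted p = 2.46e-09), as was NBEA, a protein of vesicle trafficking, at 31.1, 33.2 and 33.1 CPM against 13.02, 15.6 and 13.96 CPM in SUM44F (1.18, SE 0.10, adjusted p = 1.77e-06). KCTD12 was lower, at 0.732, 0.612 and 0.554 CPM (-3.20, SE 0.25, adjusted p = 1.24e-06), and so was PCDH9, a protocadherin, at 3.04, 3.63 and 3.60 CPM against 8.22, 9.49 and 8.20 CPM (-1.34, SE 0.14, adjusted p = 2.03e-05). PARP4 was at 25.5, 27.8 and 27.7 CPM in SUM44PE, under SUM44F (-0.99, SE 0.06, adjusted p = 2.19e-07) and also under its LTED-A samples. Of the lists by role, metabolism and transport had 2 members lower in SUM44PE, receptors and signalling 1 higher and 1 lower, cell cycle 1 higher, transcription factors 1 higher and DNA repair 1 lower. For the ubiquitin and the RNA lists edgeR and DESeq2 called 0, with 3 and 5 members at an unadjusted p under 0.05. Without SUM44F replicate 1, the medians of the stretches were -0.13 and -0.06.

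In MM134 the medians of both stretches lay between -0.05 and 0.12 on the log2 scale in all 4 variants. For the proximal and distal members they were 0.01 and 0.02 in LTED-A, -0.04 and -0.05 in LTED-B, 0.03 and -0.02 in LTED-D, and 0.09 and 0.12 in LTED-E, all against the same MM134 parental libraries, with 62 proximal and 105 distal members tested. In LTED-A 11 proximal and 19 distal members rose and 8 and 14 fell, against 10.5% higher and 9.82% lower of all 26061 genes tested. In LTED-B 7 and 16 rose and 7 and 12 fell, against 8.11% and 7.75%. For LTED-D, 7 and 15 rose and 7 and 10 fell, against 9.63% and 7.95%. In LTED-E 12 and 15 rose and 7 and 12 fell, against 8.71% and 10.3%. Among the other protein-coding genes at the CPM minimum the shares called higher were 11.1% to 14.9% and those called lower 10.3% to 13.99% over the 4 variants. The looser threshold, an adjusted p under 0.05 with no minimum fold, was passed by 50 and 77 members in LTED-A (53.2% of all genes), 39 and 72 in LTED-B (48.4%), 43 and 77 in LTED-D (51.4%) and 45 and 78 in LTED-E (51.0%). Among the other protein-coding genes, 75.8%, 70.4%, 74.1% and 73.7% passed in the same order.

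The MM134 variants changed a few members strongly. WASF3 (proximal, ENSG00000132970, chr13:26557683-26688948), an organiser of actin branching, was at 0.187 ± 0.0473 CPM in parental cells and at 14.4 ± 0.532 CPM in LTED-A, 13.8 ± 0.399 CPM in LTED-B, 17.7 ± 1.52 CPM in LTED-D and 17.9 ± 1.13 CPM in LTED-E (SD, n = 3 each). SLAIN1 (distal, ENSG00000139737), a promoter of microtubule growth, was at 0.170 ± 0.138 CPM in parental cells and at 13.1, 10.5, 15.05 and 15.9 CPM in LTED-A, -B, -D and -E. Both genes rose in all 4 variants, by log2 fold changes of 6.21 to 6.59 for WASF3 and 5.89 to 6.50 for SLAIN1. SHISA2 (proximal, ENSG00000180730), an inhibitor of WNT and FGF receptor maturation, was at 189 ± 6.18 CPM in parental cells and fell to 1.89, 3.16, 6.36 and 0.587 CPM in the same order of variants, with log2 fold changes of -6.67, -5.90, -4.89 and -8.31. ATP8A2 (proximal), a phospholipid flippase, fell from 6.18 ± 1.30 CPM by 4.04 on the log2 scale in LTED-A and by 4.09 in LTED-B. The fall was not particular to these variants, since ATP8A2 was at 0.775, 0.393 and 0.372 CPM in the LTED-D libraries. It was not among the 2 largest falls of LTED-D. SLITRK6 (distal), a neuronal transmembrane protein, fell from 17.6 ± 1.52 CPM to 1.37 ± 0.250 CPM in LTED-D and 0.158 ± 0.0287 CPM in LTED-E (SD, n = 3 each). SLC7A1 was at 36.5 CPM in parental cells and 37.9 to 42.9 CPM in the variants, and BRCA2 at 54.3 CPM and 42.3 to 53.5 CPM. GJB2 had at most 2 counts in a parental library of MM134 and was at least 3.38-fold higher in LTED-D. LMO7 rose in MM134 LTED-B (1.80, SE 0.05, adjusted p = 1.37e-15) and LTED-D (1.40, SE 0.05, adjusted p = 6.16e-14).

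**Figure D4:**
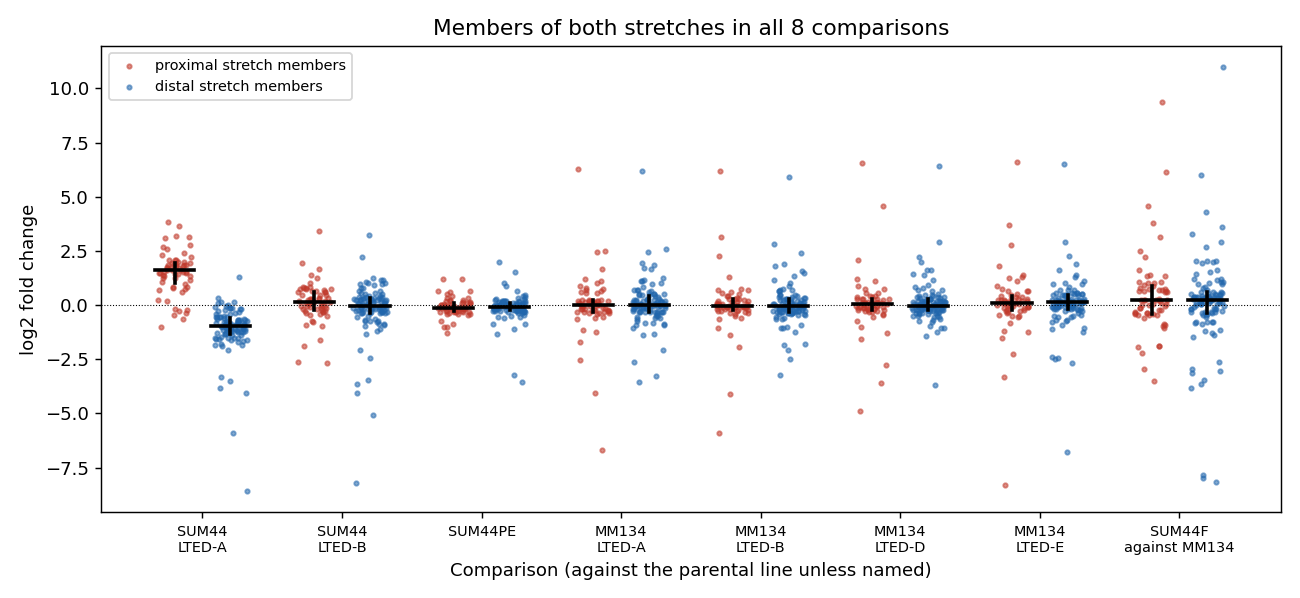
Each point is the log2 fold change (vertical axis) of 1 tested member in 1 of 8 comparisons (horizontal axis), proximal members left and distal members right in each pair, with bars for the median and the quartiles. The proximal and distal medians are 1.60 and -0.97 in SUM44 LTED-A, and in the other 7 comparisons they lie between -0.13 and 0.26.

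The lists by role were also counted in the MM134 variants, to be read beside the shares of all genes above. In the order LTED-A, -B, -D and -E, the cell cycle list of 13 members had 0, 0, 1 and 1 called higher and 1, 0, 1 and 0 called lower, and the 12 members of the RNA and translation list had 0 called higher in each and 1 called lower, in LTED-E. Of the RNA and translation members, 7, 6 and 8 had an unadjusted p under 0.05 in the LTED-A, LTED-B and LTED-D fits where edgeR and DESeq2 called 0, and so did 9 of the cell cycle members in LTED-B. Receptors and signalling genes were called most often, with 5, 3, 4 and 3 of 8 tested members lower and 2, 1, 1 and 2 higher. GAS6, a ligand of the TAM receptor kinases chosen here after its values were seen, fell to 0.784 ± 0.164 CPM in LTED-A from a parental level of 9.32 ± 0.275 CPM (SD, n = 3 each). DNA repair genes had 1 of 9 higher in each variant and 3 lower in LTED-A alone. Of 10 transcription factor and chromatin genes 3 rose and 1 fell in each variant, among them ZIC5, a zinc finger factor of neural development, which rose by 1.04 to 1.42 on the log2 scale. Metabolism and transport genes had 4, 4, 2 and 2 of 14 higher and 0 lower, and ubiquitin genes 1, 0, 0 and 2 of 11 higher and 0 lower by edgeR and by DESeq2, with 9, 5, 9 and 9 at an unadjusted p under 0.05.

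Parental cells of the 2 lines differed in both stretches. In SUM44F against MM134 parental cells, the median log2 fold change was 0.22 over 64 proximal and 0.26 over 107 distal members, beside -0.06 over the other protein-coding genes. Of the proximal members 26 were higher and 10 lower in SUM44F, and of the distal members 27 and 20, against 19.0% higher and 19.1% lower of all 29608 genes tested, and 23.7% and 28.0% of the other protein-coding genes. With an adjusted p under 0.05 and no minimum fold, 55 and 92 members passed, against 65.1% of all genes. The member shares were 85.9% and 86.0%, beside 84.3% of the other protein-coding genes. MYO16 was at 181 ± 9.00 CPM in SUM44F and 0.0869 ± 0.0539 CPM in MM134 parental cells (SD, n = 3 each; log2 fold change 10.98, SE 0.17, adjusted p = 4.65e-25), and FLT3, with at most 1 count in an MM134 parental library, was at least 235-fold higher in SUM44F. ZIC5, with at most 3 counts in a SUM44F library, was at least 115-fold lower, against 6.01 ± 0.262 CPM in MM134 parental cells (SD, n = 3). GPC6, a glypican of the cell surface, was at 0.0618 ± 0.0798 CPM in SUM44F and 13.01 ± 0.751 CPM in MM134 parental cells (SD, n = 3 each; log2 fold change -7.85, SE 0.26, adjusted p = 1.27e-18). By list, 6 of 15 metabolism and transport members were higher in SUM44F and 0 lower, 6 of 9 receptors and signalling members higher and 1 lower, and 2 of 13 cell cycle members higher and 6 lower. The other lists had 3 of 11 (ubiquitin), 2 of 12 (RNA and translation), 2 of 9 (DNA repair) and 3 of 10 (transcription factors) higher, and lower ones among the transcription factors (3). Without SUM44F replicate 1, the medians were 0.23 and 0.21. Here the lines differ in origin as well, and the part of each source of difference cannot be told apart.

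Ordered by the summed level of the proximal stretch, the groups were SUM44 LTED-A (9099 ± 764 CPM, SD, n = 2), SUM44 LTED-B (3125 ± 34.4), SUM44F (2493 ± 37.8), MM134 parental (2370 ± 44.6), SUM44PE (2338 ± 91.3), and MM134 LTED-E (2113 ± 9.74), LTED-D (2077 ± 23.3), LTED-B (1999.8 ± 57.3) and LTED-A (1977 ± 4.44, SD, n = 3 each). Among neighbours in this order, MM134 parental and SUM44PE libraries overlapped, as did MM134 LTED-D with LTED-B and LTED-B with LTED-A. A sum weighs abundant members most, such as ATP8A2 at 985 CPM in both SUM44 LTED-A samples. In MM134 the fall of SHISA2 enters the sums of every variant. There the mean shift by the proximal median was 0.010, -0.039, 0.002 and 0.072 (log2) in LTED-A, -B, -D and -E. By the distal median it was 0.025, -0.053, -0.025 and 0.095. For the distal stretch the order was SUM44 LTED-B (3148 ± 29.7 CPM), SUM44F (3104 ± 82.2), SUM44PE (3022 ± 82.8), MM134 LTED-E (2785 ± 16.2), LTED-A (2715 ± 9.33), LTED-D (2706 ± 9.85), LTED-B (2613 ± 56.1) and parental (2571 ± 48.3, SD, n = 3 each), with SUM44 LTED-A last (1596 ± 72.9, SD, n = 2). SUM44 LTED-B and SUM44F overlapped there, as did SUM44F and SUM44PE, MM134 LTED-A and LTED-D, and MM134 LTED-B and parental cells. SUM44 LTED-A was first in one order and last in the other, without overlap with its neighbour in either.

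Genes of the stretches that the rule left out were looked at in SUM44 LTED-A as well. Of the 92 long noncoding RNA genes of the proximal stretch, 38 passed the filter, with a median log2 fold change of 0.73 and 8 called higher and 0 lower. In the distal stretch 75 of 233 passed, with a median of -0.91 and 13 called lower and 0 higher. Of all genes tested, 6.39% were called higher and 7.28% lower in LTED-A. Protein-coding genes below the CPM minimum had medians of 0.46 (7 of 33 tested, proximal) and -1.08 (16 of 49 tested, distal). In LTED-B the same noncoding genes had medians of -0.60 and -0.59, with 3 higher and 2 lower in the proximal and 1 higher and 11 lower in the distal stretch, against 8.69% and 8.57% of all genes, and the distal protein-coding genes of low level -0.78. They share the SUM44F libraries with the members. Counts of some members are uncertain because genes overlap, such as UTP14C within ALG11 and ENSG00000273167 with SPATA13, and the strand setting of the counting was not given in the sources used here.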

How the data were processed

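RNA-Seq counts of the chromosome 13 members were analysed in 27 libraries of 9 groups. The study prepared stranded total RNA. With Salmon 0.6.0, hg38 and Ensembl release 82, per the labels, the authors derived expected counts for 60619 genes and deposited them without normalization; trimming and the strand setting are not given in the sources used here. The division of reads among overlapping genes and near-identical copies rests on that estimate.

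Counts were rounded, and 56434 genes were placed with GENCODE v44. The members and gene lists were chosen with earlier results of these data known. Genes passing filterByExpr were scaled by TMM, and the two-sided quasi-likelihood F-test of edgeR 4.0.16 (R 4.3.3) was adjusted by Benjamini-Hochberg over all genes tested. There was 1 fit for MM134 (15 libraries), 1 for SUM44F and the SUM44 variants (8), 1 adding SUM44PE (11) and 1 of all 26 samples, which also scaled the printed CPM. Calls needed a change beyond 1.5-fold and an adjusted p under 0.001. A sample's stretch shift is the median over members of log2(CPM + 0.5) minus the parental mean. A group with at most 3 counts in every library was set to 3 counts, which bounds the fold from below for counting error only. Depth was 28583554 to 134882175 counts per library.

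Genes are named by fixed roles (the 4 most abundant members of each list), by the 4 largest differences with and the 2 most against each stretch in SUM44 LTED-A, and by the 2 largest rises and falls in each other comparison, at 5 CPM or more in 1 group. Replicate numbers did not pair samples, since 0 of 13 pairs of groups had all correlations over 0.1. Alternatives were DESeq2 1.42.0, RLE size factors, no filter on low counts, a looser threshold, a replicate block, each library left out, members of at least 5 CPM, members overlapping a border, SUM44PE in the fit, and the near-identical replicates kept apart. The test was tried on simulated data. Other tools were pandas 2.3.3, numpy 2.4.6 and matplotlib 3.10.9.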

Additional observations from a re-analysis of the deposited data

Results flagged for a closer look

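For the distal stretch in 4 pairs of MM134 variants, every library of one variant lay above and every library of the other below the parental mean. The parental libraries themselves lay between -0.035 and 0.027, a range that holds all 3 LTED-D libraries, 2 of the 3 of LTED-A and 1 of the 3 of LTED-B. The mean shift on the log2 scale was 0.03 in LTED-A and -0.05 in LTED-B (difference 0.08), 0.03 in LTED-A and -0.02 in LTED-D (0.05), -0.05 in LTED-B and 0.09 in LTED-E (-0.15), and -0.02 in LTED-D and 0.09 in LTED-E (-0.12). These differences were not tested, and the variants share the parental libraries.

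NALF1 was below the SUM44F mean in both SUM44 LTED-A samples (-0.29 on the log2 scale) and above it in every LTED-B library (2.64), a difference of -2.93. SHISA2 was above it in both LTED-A samples (0.60) and below it in every LTED-B library (-0.43), a difference of 1.03. Neither difference was tested.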

How the results depend on the processing

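In SUM44 LTED-A the proximal median stayed above 1.5 and the distal median at or below -0.88 under every alternative tried, although the distal value moved by more than the spread of its libraries, to -0.91 with members of at least 5 CPM, -0.88 with DESeq2 and -0.92 without a filter on low counts. Leaving out 1 library at a time gave 1.58 to 1.74 proximal, the highest without LTED-A replicate 1, and -0.98 to -0.90 distal, and leaving out the averaged replicates 2 and 3 of LTED-A gave 1.53 and -1.01, where a lone LTED-A sample is assumed to vary like the other groups. The distal median of SUM44 LTED-B lay on either side of 0, at 0.080 with members of at least 5 CPM, 0.0091 with RLE size factors, -0.058 without a filter, and -0.060 to 0.034 with libraries left out, the extremes being without LTED-B replicate 3 and without SUM44F replicate 3. In SUM44PE the distal median ran from -0.093 to -0.034 with libraries left out, and 5 to 7 proximal and 5 to 8 distal members were called in place of 8 and 8, the 5 without SUM44PE replicate 2 or 3 (proximal) and without replicate 3 (distal). With members of at least 5 CPM, 5 distal members were called in SUM44PE, 18 in MM134 LTED-B in place of 28, and the proximal medians of MM134 LTED-A and LTED-D were -0.023 and -0.015. DESeq2 gave 0.072 for the latter. In MM134 LTED-B the proximal median ran from -0.072 to 0.0040 with libraries left out. The cause of these moves was not tested.

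At an adjusted p under 0.05 with no minimum fold, the proximal and distal counts of called members were 40 and 63 in SUM44 LTED-B, 29 and 29 in SUM44PE, 50 and 77 in MM134 LTED-A, 39 and 72 in LTED-B, 43 and 77 in LTED-D, 45 and 78 in LTED-E, and 55 and 92 in SUM44F against MM134. The shares of members tested were 63.5% and 62.4% in SUM44 LTED-B, 46.0% and 28.7% in SUM44PE, and 85.9% and 86.0% in SUM44F against MM134. In MM134 LTED-A, -B, -D and -E they were 80.6% and 73.3%, 62.9% and 68.6%, 69.4% and 73.3%, and 72.6% and 74.3%. Of the other protein-coding genes, 63.0%, 35.9%, 75.8%, 70.4%, 74.1%, 73.7% and 84.3% passed, in the order of the counts above.

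Same-numbered replicates did not deviate together (39 correlations from -0.24 to 0.20, with 10 of 39 samples closest to their own number), so the numbers do not pair the samples. With the replicate number as a block, all 32 medians and counts were rated unmoved, the proximal and distal medians of SUM44 LTED-B among them. For a median this means a move within the spread of its libraries, so a median near 0 may have changed side. The only call of a named gene lost was that of HMGB1 in LTED-B (0.65). Of 95 pairs of a named gene and a comparison, 6 lost or gained a call under at least 1 alternative and 0 changed sign. With n = 2, SUM44 LTED-A rests on its pooled spread with the other groups, and members with few counts have wide errors.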
